A study of Rattus norvegicus with 8 samples.

Results

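The genes described here are 8 genes that mark the medium spiny neurons of the striatum, the projection neurons that carry almost all output of that nucleus: Ppp1r1b, Drd1, Drd2, Adora2a, Penk, Tac1, Pde10a and Rgs9. They were chosen by symbol. Every probe set whose platform annotation gave one of these symbols and no other was taken, which found all 8 genes among the 10411 that the annotation names singly, with 11 probe sets of the 15923 in the table. Of these 11 probe sets, 10 passed the signal filter, a reading over 916.3 on at least 2 of the 8 arrays, and were tested among 10310 probe sets. The remaining probe set, 1 of the 2 for Adora2a, stayed below the filter on all 8 arrays.

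Brain RNA of male Wistar rats, 7 weeks old and weighing 160 to 200 g, was measured on 8 Affymetrix RAE 230A arrays, short-oligonucleotide arrays of rat genes. The RNA of 2 rats was combined on each array, and every one of the 4 groups had 2 such pools of different rats. In the stroke candesartan group the right middle cerebral artery was occluded for 90 min and then reperfused, after 5 days of candesartan, a blocker of the angiotensin AT1 receptor, injected under the skin 2 times a day at 0.1 mg/kg. The sham candesartan group received the same drug before a sham operation. The stroke vehicle group had the occlusion and reperfusion after 5 days of 0.9% NaCl, and the sham vehicle group had the sham operation after the same saline injections. In all groups the operated right hemisphere was sampled 2 h later as a segment of tissue. The labels do not give the level of that segment or how it was cut relative to the striatum. Whatever striatum, cortex and other tissue the segment held was measured together. For the array of stroke candesartan pool 2 the treatment protocol states no pretreatment, and its group rests on its description.

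Medium spiny neurons use GABA and fall into a pair of populations. Direct-pathway neurons carry the dopamine D1 receptor, encoded by Drd1, which raises cyclic AMP, and make substance P from Tac1. Indirect-pathway neurons carry the dopamine D2 receptor (Drd2), which lowers cyclic AMP, and the adenosine A2a receptor (Adora2a), which raises it, and make enkephalin from Penk. Both populations share DARPP-32, the product of Ppp1r1b, which blocks protein phosphatase 1 once protein kinase A has phosphorylated it, the phosphodiesterase Pde10a, which breaks down cyclic AMP and cyclic GMP, and Rgs9, which shortens signalling by the inhibitory G proteins. The striatum lies in the territory of the middle cerebral artery and is commonly part of the ischemic core when that artery is occluded in rats.

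The sequence around the gene start, from 250 bases before to 50 bases from the start on, was held by the RefSeq promoter table (build GRCr8) for 5 of the 8 genes, Drd1, Drd2, Tac1, Pde10a and Rgs9, with 2 starts for Pde10a. Of these 6 windows, 4 are printed: Tac1 and Rgs9, whose signals moved together over the arrays, and both starts of Pde10a, of whose 2 probe sets one gave the largest difference between stroke and sham and the other that between candesartan and vehicle. Each is written 5′ to 3′ on the strand of the gene, and capitals mark TGACG, the core of the cyclic AMP response element, or its reverse complement CGTCA.
Tac1, chr4:36645333-36645632, plus strand: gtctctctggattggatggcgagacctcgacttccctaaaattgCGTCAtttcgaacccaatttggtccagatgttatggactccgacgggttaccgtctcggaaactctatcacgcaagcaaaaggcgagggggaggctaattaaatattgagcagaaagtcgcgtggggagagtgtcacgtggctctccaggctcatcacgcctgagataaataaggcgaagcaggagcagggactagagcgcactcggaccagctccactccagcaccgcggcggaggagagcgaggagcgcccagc
Rgs9, chr10:94770338-94770637, minus strand: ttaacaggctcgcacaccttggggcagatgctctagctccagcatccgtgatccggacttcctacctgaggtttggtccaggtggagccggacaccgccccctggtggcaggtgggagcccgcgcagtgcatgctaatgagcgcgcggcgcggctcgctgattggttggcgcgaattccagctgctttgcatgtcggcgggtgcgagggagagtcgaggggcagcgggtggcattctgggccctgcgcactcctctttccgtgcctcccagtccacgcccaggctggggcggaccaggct
Pde10a, chr1:54501157-54501456, minus strand: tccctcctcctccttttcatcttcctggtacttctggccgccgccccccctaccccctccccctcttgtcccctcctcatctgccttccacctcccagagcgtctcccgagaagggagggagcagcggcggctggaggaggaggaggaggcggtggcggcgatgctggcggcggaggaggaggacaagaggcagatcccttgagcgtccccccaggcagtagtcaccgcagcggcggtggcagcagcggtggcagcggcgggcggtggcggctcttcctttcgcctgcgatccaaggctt
Pde10a, chr1:54765619-54765918, minus strand: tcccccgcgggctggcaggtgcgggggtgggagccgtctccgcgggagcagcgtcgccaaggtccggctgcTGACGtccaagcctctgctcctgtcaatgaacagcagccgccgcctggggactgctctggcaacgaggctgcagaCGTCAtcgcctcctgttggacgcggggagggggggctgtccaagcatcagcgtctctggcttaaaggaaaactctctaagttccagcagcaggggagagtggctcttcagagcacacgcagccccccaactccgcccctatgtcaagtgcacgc
On either strand TGACG stood 1 time in the Tac1 window, 206 bases before the start, and 2 times in the Pde10a window at 54765619, 179 and 104 bases before the start. It had 0 matches in the other Pde10a window and in the windows of Rgs9, Drd1 and Drd2. It stood in 21.2% of all 33469 promoter windows. The full element TGACGTCA, which contains the core, stood in 1.83% of all windows, the AP-1 site TGANTCA in 7.33% and the TATA box TATAAA in 14.2%, and each had 0 matches in the 6 windows. Such matches describe the letters of the window and show no binding.

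The signals were linear probe set intensities on a scale common to all arrays, so they can be compared between arrays for one probe set but not between probe sets. Of the 10 tested probe sets 9 read above the filter of 916 on all 8 arrays, and Drd1 1368479_at did so on 7. Of 36 further genes listed as enriched in striatal projection neurons, 27 had a probe set with a single symbol and 18 passed the filter. Genes listed as markers of other cells or tissue were measured as well: 12 of 12 pyramidal neuron genes on the array, 9 of 11 thalamic and hypothalamic genes and 4 of 7 choroid plexus genes passed the same filter. So did 10310 of all 15866 probe sets other than controls, so passing does not show that a tissue was in the segment. In RNA from whole tissue, fewer cells of a type and less RNA per cell cannot be told apart. The arrays' trimmed mean signals differed by at most 0.000426%, and stroke candesartan pool 2 stood apart, with a mean correlation of 0.951 with the other arrays, against 0.970 to 0.973 for the other 7.

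Ppp1r1b, the DARPP-32 gene (probe set 1372208_at), read 10146 and 6633 in stroke candesartan pools 1 and 2, 10728 and 6884 in sham candesartan, 8031 and 8151 in stroke vehicle, and 9533 and 8792 in sham vehicle. Both pools 1 of the candesartan groups were high and both pools 2 low, with all 4 vehicle arrays between them. The group means were 8390 ± 2484 in stroke candesartan, 8806 ± 2718 in sham candesartan, 8091 ± 84.8 in stroke vehicle and 9163 ± 524 in sham vehicle (SD, n = 2 pools, as for all means here).

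The D1 receptor gene had 2 probe sets. Drd1 (1368478_at) read 4118 and 2544 in stroke candesartan, 2912 and 2691 in sham candesartan, 3063 and 3826 in stroke vehicle, and 2739.9 and 2273.5 in sham vehicle. Both stroke vehicle pools lay above both sham vehicle pools, while the stroke candesartan pools lay on either side of the sham candesartan pools. The second Drd1 probe set (1368479_at) read 1552 and 1329 in stroke candesartan, 1321 and 1033 in sham candesartan, 1105 and 1506 in stroke vehicle, and 1099 and 828 in sham vehicle. With this probe set both stroke groups lay above their sham groups without overlap, in stroke vehicle by a margin of 1105 against 1099. The ratio of the highest to the lowest group mean was 1.37 for the first Drd1 probe set and 1.495 for the second, and in each of them neighbours in the order of the group means overlapped.

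The D2 receptor gene Drd2 (1368708_a_at) read 2650 and 1900 in stroke candesartan, 2746 and 2409.5 in sham candesartan, 2202 and 2640 in stroke vehicle, and 2442 and 2462 in sham vehicle. The lowest array was stroke candesartan pool 2, and no group lay apart from any other in the order of their means. Adora2a (1368300_at), whose receptor opposes the D2 receptor in the same cells, read 2561.5 and 1482 in stroke candesartan, 2469.5 and 1625 in sham candesartan, 1328 and 2221 in stroke vehicle, and 2230 and 2009 in sham vehicle. Its spread between the pools of a group, up to 1.73 times in stroke candesartan, exceeded the ratio of 1.19 between the highest group mean (sham vehicle) and the lowest (stroke vehicle). The other Adora2a probe set (1368301_at), below the filter, read 269 and 478 in stroke candesartan, 233.5 and 186.5 in sham candesartan, 75 and 415 in stroke vehicle, and 520 and 161 in sham vehicle, and it was not tested.

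Penk, the enkephalin precursor of indirect-pathway neurons (1367949_at), read 17258 and 18978.5 in stroke candesartan, 18322 and 12492 in sham candesartan, 14061 and 14989 in stroke vehicle, and 12513 and 14305 in sham vehicle. Both stroke candesartan pools lay above both pools of either vehicle group, and sham candesartan pool 1 lay between them. Tac1, the substance P precursor of direct-pathway neurons (1369309_a_at), read 4388 and 2731 in stroke candesartan, 4314 and 2915 in sham candesartan, 2703.5 and 3052 in stroke vehicle, and 3849 and 2845 in sham vehicle. For Tac1 all 4 groups overlapped, and the 3 highest arrays were pool 1 of 3 different groups.

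Pde10a, the phosphodiesterase, also had 2 probe sets, and they did not share one pattern. Pde10a (1368438_at) read 10747 and 11533 in stroke candesartan, 12816 and 11293 in sham candesartan, 7575.5 and 8574 in stroke vehicle, and 10434 and 8987 in sham vehicle. All 4 candesartan arrays lay above all 4 vehicle arrays, and stroke vehicle lay below sham vehicle without overlap. How many of all tested probe sets separated the candesartan from the vehicle arrays in this way was not determined. The second Pde10a probe set (1370669_a_at) read 5427 and 3263 in stroke candesartan, 6905 and 5149 in sham candesartan, 3222 and 4196 in stroke vehicle, and 5702 and 5195.5 in sham vehicle. Here the stroke vehicle pools again lay below the sham vehicle pools, but stroke candesartan pool 1 overlapped with the sham candesartan pools and the candesartan arrays did not stand apart from the vehicle arrays. The ratio of the highest group mean (sham candesartan) to the lowest (stroke vehicle) was 1.49 for the first Pde10a probe set and 1.62 for the second.

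Rgs9, the G-protein regulator (1368500_a_at), read 7319 and 4184 in stroke candesartan, 6886 and 4962.5 in sham candesartan, 5257 and 5485.5 in stroke vehicle, and 5032.5 and 5282 in sham vehicle. The 4 vehicle arrays lay close together and within the range of the 4 candesartan arrays, whose pools 1 were high and pools 2 low. The ratio of the highest to the lowest group mean was 1.149 for Rgs9, against 1.75 between the pools of stroke candesartan.

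**Figure D1:**
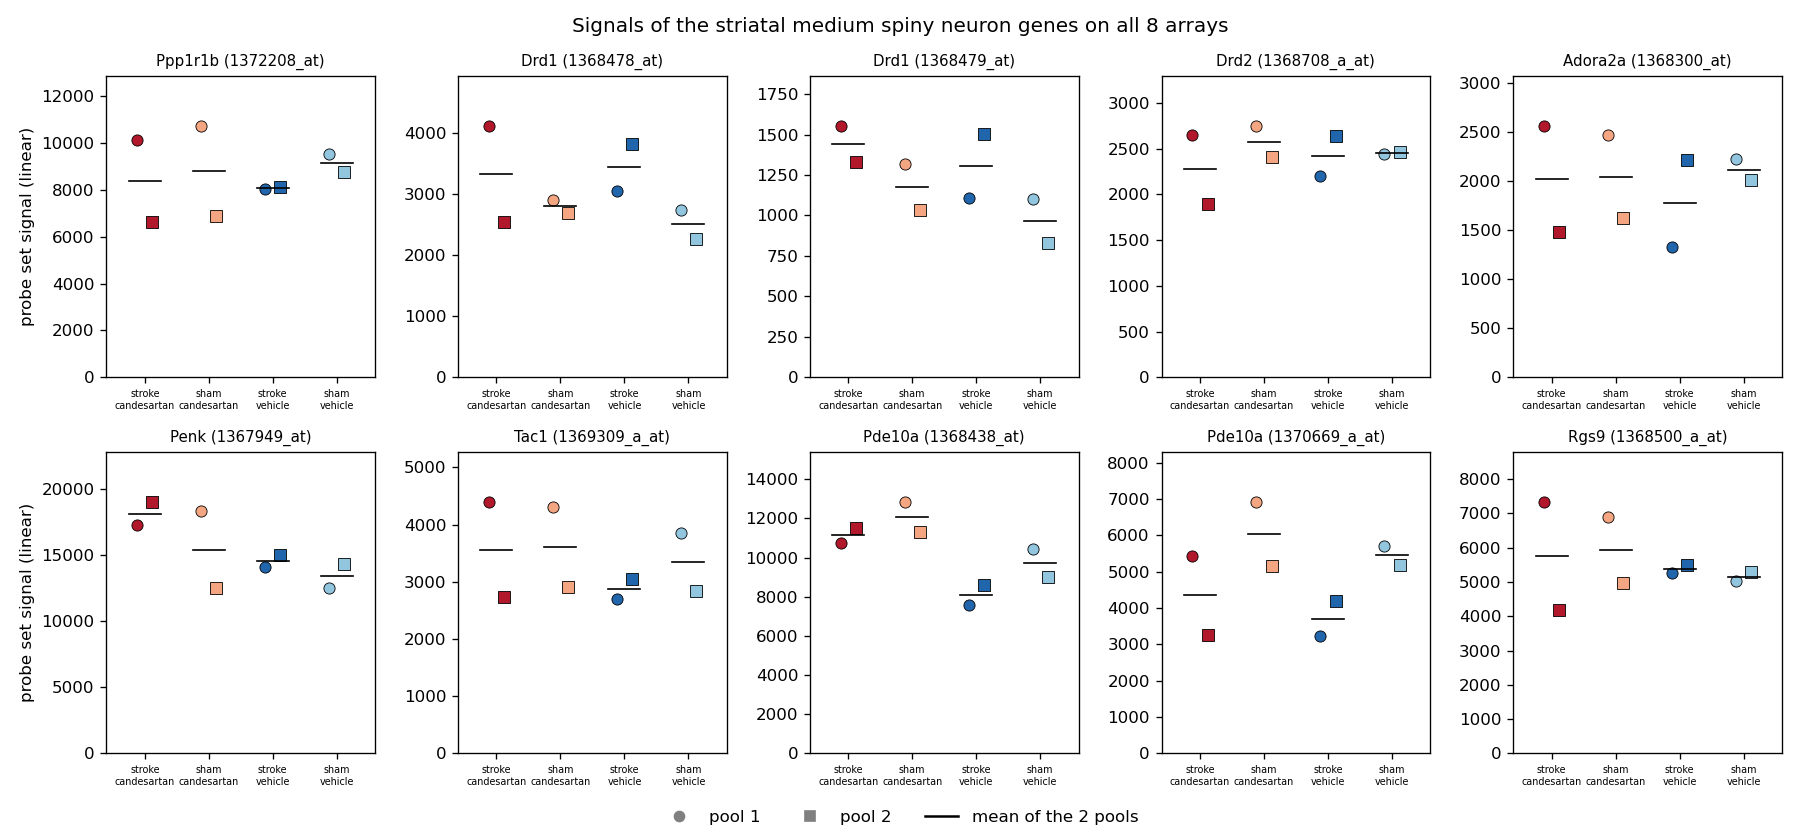
Signal (linear, y axes start at 0) of the 10 tested probe sets of the 8 genes in each group on the x axis, with pool 1 as circles, pool 2 as squares and the mean of the 2 pools as a line. Pde10a 1368438_at separates candesartan from vehicle arrays, and the share of all tested probe sets that do so was not determined. Ppp1r1b, Tac1 and Rgs9 differ most between the pools of the candesartan groups, such as 7319 against 4184 for Rgs9 in stroke candesartan.

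The first question was whether stroke altered these genes at 2 h in rats without the drug. With vehicle, 0 of the 10 probe sets passed limma's test at an adjusted p under 0.05, against 0.262% of all 10310 tested probe sets. An unadjusted p under 0.05 was found for 1 of the 10, against 7.04% of all tested probe sets. The median difference, stroke minus sham, was -0.10 on the log2(signal + offset) scale, with an offset of 369.9, against 0.01 over all tested probe sets, with 4 of the 10 above 0. That median turned to 0.071 without stroke vehicle pool 1. The groups did not overlap for 5 of the 10, 2 higher (both Drd1 probe sets) and 3 lower (Ppp1r1b and both Pde10a probe sets), and 45.2% of all tested probe sets also showed no overlap. The largest difference was that of Pde10a 1370669_a_at, -0.52 ± 0.22 (SE; limma adjusted p = 0.649). For Pde10a 1368438_at it was -0.25 ± 0.13 (adjusted p = 0.731 by limma).

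The D1 receptor gene stood on the other side, at 0.40 ± 0.20 for Drd1 1368478_at and 0.33 ± 0.19 for Drd1 1368479_at (limma adjusted p = 0.731 and 0.792). Without stroke vehicle pool 2 the same Drd1 differences were 0.26 and 0.15. Penk had a difference of 0.11, Rgs9 of 0.05, Drd2 of -0.02, Ppp1r1b of -0.17, Tac1 of -0.18 and Adora2a of -0.25, each with an adjusted p of at least 0.92 by limma. The 95% intervals of the 10 differences reached from -1.001 at the lowest bound (Pde10a 1370669_a_at) to 0.84 at the highest (Drd1 1368478_at). An exact permutation test of 2 pools against 2 cannot give a two-sided p below 0.333, and the p-values given rest on the spread that limma shares between probe sets and groups.

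In candesartan rats the same comparison again gave 0 of 10 probe sets past limma's threshold, against 0.242% of all tested probe sets. An unadjusted p under 0.05 was found for 0 of 10, against 12.4% of all tested probe sets. The median difference of the 10 was -0.05, against -0.03 over all probe sets, with 3 above 0. Only Drd1 1368479_at had stroke and sham pools that did not overlap, 1 of 10, against 38.2% of all tested probe sets. Pde10a 1370669_a_at had the largest difference, -0.47 ± 0.22 (limma adjusted p = 0.42), and Pde10a 1368438_at gave -0.11. Drd1 gave 0.19 with 1368478_at and 0.23 with 1368479_at (limma adjusted p = 0.718 and 0.647), and Penk gave 0.25 ± 0.16 (adjusted p = 0.55 by limma). The differences of Ppp1r1b, Rgs9, Tac1, Adora2a and Drd2 were -0.06, -0.07, -0.03, -0.03 and -0.17.

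Over both pretreatments, stroke minus sham was -0.49 ± 0.15 for Pde10a 1370669_a_at, with a 95% interval of -0.83 to -0.15, and it did not pass (unadjusted p = 0.00857, limma adjusted p = 0.286). For Pde10a 1368438_at the difference was -0.18 ± 0.09 (adjusted p = 0.567 by limma). The Drd1 probe sets gave 0.30 and 0.28 (adjusted p = 0.544 and 0.563 by limma). None of the 10 probe sets passed limma's test, against 0.417% of all tested probe sets, and 1 had an unadjusted p under 0.05, against 9.52%. The 4 stroke arrays overlapped with the 4 sham arrays in all 10, against 5.22% of tested probe sets without overlap. The call on Pde10a 1370669_a_at turned on a single array. Without stroke candesartan pool 1 its difference was -0.66 over both pretreatments (limma adjusted p = 0.0246) and -0.80 in candesartan rats (adjusted p = 0.0353 by limma), and it passed. That setting leaves stroke candesartan pool 2, the array that stood apart, alone in its group, and 388 and 834 of all tested probe sets then passed these comparisons, against 43 and 25 with all arrays. Without stroke candesartan pool 2 the Pde10a 1370669_a_at difference in candesartan rats was -0.13 (limma adjusted p = 0.857).

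**Figure D2:**
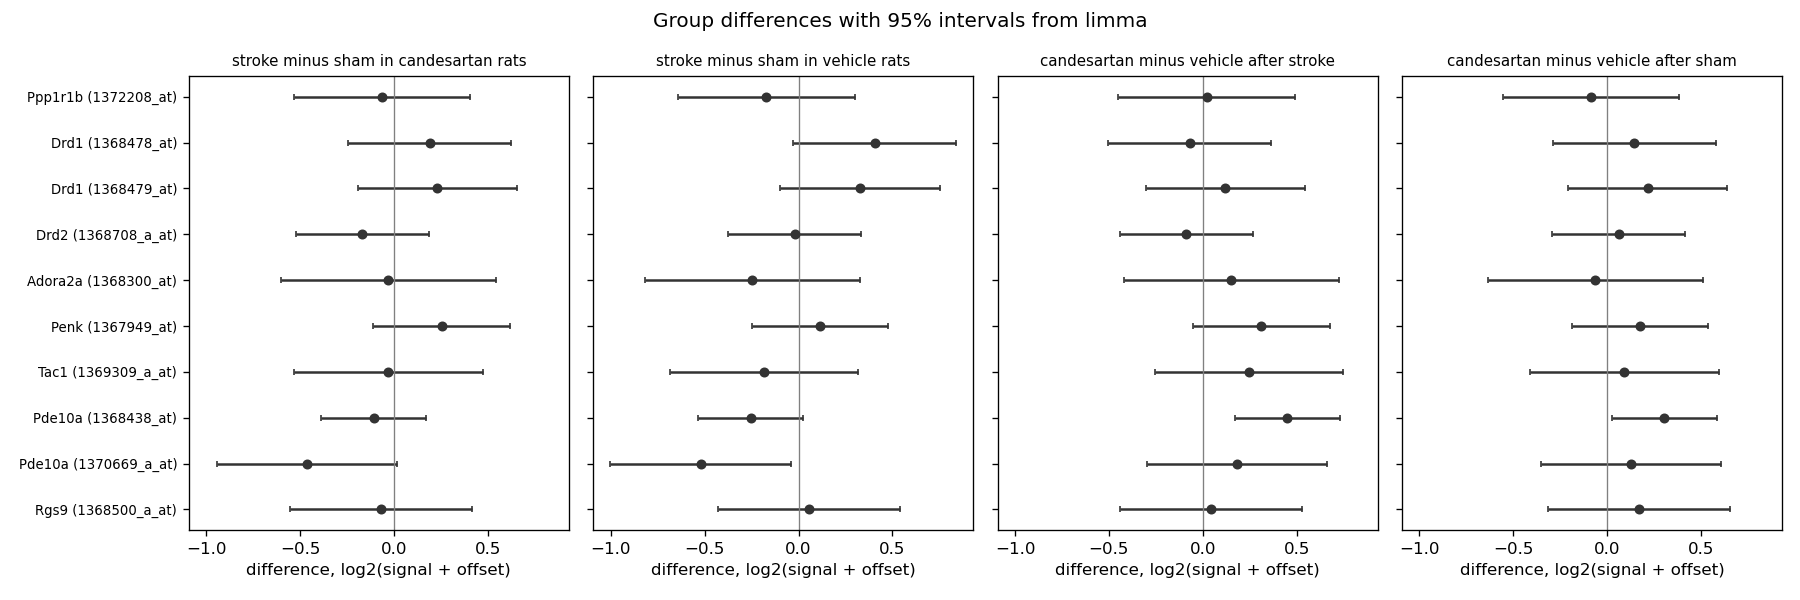
Difference between groups on the log2(signal + offset) scale (x axis) for each of the 10 tested probe sets (rows) in 4 comparisons, with points for the limma estimate and bars for its 95% interval. Intervals cross 0 except those of Pde10a 1370669_a_at for stroke minus sham with vehicle (-1.001 to -0.04) and of Pde10a 1368438_at for candesartan minus vehicle after stroke (0.17 to 0.73) and after sham (0.02 to 0.58), and no probe set passed after adjustment.

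The effect of candesartan itself was asked in stroke and in sham rats. After stroke, 0 of 10 probe sets passed limma's test, against 0.0679% of all tested probe sets. An unadjusted p under 0.05 was found for 1 of 10, against 13.1% of all tested probe sets. The median of the 10 differences, candesartan minus vehicle, was 0.14, against -0.03 over all tested probe sets, and 8 of 10 were above 0. Pde10a 1368438_at differed by 0.45 ± 0.13, from 0.17 to 0.73 in the 95% interval, with no overlap between 11140 ± 555 in stroke candesartan and 8075 ± 706 in stroke vehicle. Its unadjusted p was 0.00484 and its limma adjusted p = 0.251, so it did not pass. The second Pde10a probe set, 1370669_a_at, gave 0.18 ± 0.22 (adjusted p = 0.756 by limma). Penk differed by 0.31 ± 0.16 (limma adjusted p = 0.444), with 18118 ± 1217 in stroke candesartan and 14525 ± 656 in stroke vehicle and no overlap. Without stroke candesartan pool 2, the array that stood apart, the difference was 0.40 for Pde10a 1368438_at and 0.24 for Penk (adjusted p = 0.39 and 0.697 by limma). Penk and Pde10a 1368438_at were the 2 of 10 without overlap, against 41.8% of all tested probe sets.

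After sham surgery, candesartan minus vehicle was 0.30 ± 0.13 for Pde10a 1368438_at (unadjusted p = 0.0364, limma adjusted p = 1), the 1 of 10 probe sets without overlap, against 33.8% of all tested probe sets. Its means were 12054 ± 1077 in sham candesartan and 9710 ± 1023 in sham vehicle. Pde10a 1370669_a_at gave 0.12 and Penk 0.17, both with an adjusted p of 1 by limma. Again 0 of 10 probe sets passed limma's test, against 0% of all tested probe sets, and 1 had an unadjusted p under 0.05, against 3.92%. The median of the 10 was 0.13, against 0.01 over all tested probe sets, and 8 were above 0. The comparisons after stroke and after sham share no array, while each shares a group with a comparison of stroke and sham.

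Whether the stroke difference itself depended on the drug was tested as an interaction, stroke minus sham in candesartan rats minus the same in vehicle rats. It lay between -0.21 (Drd1 1368478_at) and 0.21 (Adora2a) in the 10 probe sets. Of these, 0 passed limma's threshold, against 0.0194% of all tested probe sets, and 0 had an unadjusted p under 0.05, against 8.87%. The smallest adjusted p among the 10 was 0.83 by limma. The median of the 10 interaction values was 0.08, against -0.05 over all tested probe sets.

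For most of these genes, as for most tested probe sets, the pools of one group differed by more than the groups did. In 8 of 10 probe sets the largest ratio between the pools of a group exceeded the ratio of the highest to the lowest group mean, against 65.5% of all tested probe sets. The exceptions were Drd1 1368479_at, with 1.36 between pools and 1.495 between group means, and Pde10a 1368438_at, with 1.16 and 1.49. Within a group the pool differences of these genes mostly had one direction. In stroke candesartan pool 1 was higher in 8 of 10 probe sets, with a median difference of 0.60 (log2), and in sham candesartan it was higher in 10 of 10, with a median of 0.42. In stroke vehicle pool 1 was higher in 0 of 10, with a median of -0.20, and in sham vehicle in 7 of 10, with a median of 0.13. Over all tested probe sets pool 1 was higher in 51.5%, 49.9%, 47.6% and 47.7% of cases in stroke candesartan, sham candesartan, stroke vehicle and sham vehicle, with medians within 0.02 of 0. A difference of 2 arrays has no replicate, so these values describe the arrays and carry no test.

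The genes behind those medians were largely the same in both candesartan groups. Rgs9 differed between pool 1 and pool 2 by 0.76 in stroke candesartan and 0.44 in sham candesartan, more than 95.2% and 91.5% of all tested probe sets in absolute size. Adora2a differed by 0.66 and 0.51 in these groups, Tac1 by 0.62 and 0.51, and Ppp1r1b by 0.59 and 0.61. Pde10a 1370669_a_at gave 0.67 in stroke candesartan and 0.40 in sham candesartan. Drd1 1368478_at differed by 0.62 in stroke candesartan and by 0.10 in sham candesartan. Penk ran the other way in stroke candesartan, at -0.13, and gave 0.54 in sham candesartan, while Pde10a 1368438_at gave -0.10 and 0.18. The absolute pool difference of 5 of the 10 exceeded that of 90% of all tested probe sets in stroke candesartan, as it did for 5 in sham candesartan, 1 in stroke vehicle (Adora2a at -0.61) and 1 in sham vehicle (Tac1 at 0.39).

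**Figure D3:**
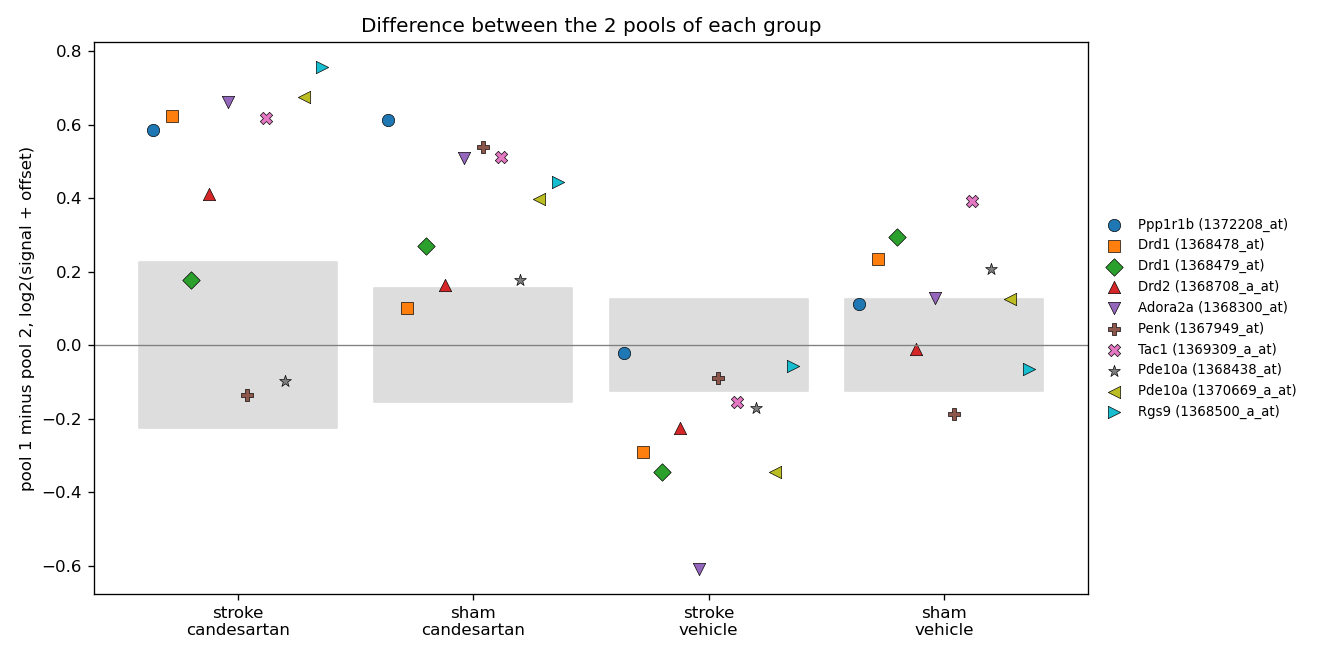
Pool 1 minus pool 2 of each group on the log2(signal + offset) scale (y axis) for the 10 tested probe sets, 1 symbol each. The grey band spans the median absolute pool difference over all tested probe sets on both sides of 0, which is 0.23 in stroke candesartan. Symbols lie mostly above the band in both candesartan groups, reaching 0.76 for Rgs9, and all lie below 0 in stroke vehicle.

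Markers of other cells moved between the same pools, and their part in the pool differences was not tested. The summed signal of the 8 genes, with 1 probe set for each, was 59187 and 49986 in stroke candesartan pools 1 and 2, 61193 and 45272 in sham candesartan, 44222 and 48939 in stroke vehicle, and 48774 and 46955 in sham vehicle. Such sums, here and for the lists below, weigh bright probe sets most. Relative to sham vehicle, the median log2 level of the 8 genes was 0.30 and -0.26 in these stroke candesartan pools. It was 0.28 and -0.07 in sham candesartan, -0.16 and 0.07 in stroke vehicle, and 0.06 and -0.06 in sham vehicle. Stroke candesartan pool 2 thus had the lowest median, though its sum lay above those of all vehicle arrays. Of the 12 pyramidal neuron markers, 8 were higher in pool 1 in stroke candesartan, 5 in sham candesartan, 10 in stroke vehicle and 7 in sham vehicle. Their sums ranged over 169550 to 176002 in stroke candesartan, 129370 to 137240 in sham candesartan, 131773 to 145947 in stroke vehicle and 129995 to 135686 in sham vehicle. The 6 markers of dopaminergic neurons were higher in pool 1 in 0, 6, 1 and 4 cases in stroke candesartan, sham candesartan, stroke vehicle and sham vehicle. Their median pool difference of -0.13 in stroke candesartan stood opposite to the 0.60 of the medium spiny neuron genes, and that in sham candesartan, 0.50, had the same sign as their 0.42. The sums of these 6 ranged over 8438 to 10202 in stroke candesartan, 7586 to 12203 in sham candesartan, 9244 to 10225 in stroke vehicle and 13207 to 14901 in sham vehicle. Of 9 astrocyte markers 2 were higher in pool 1 in stroke candesartan, 7 in sham candesartan, 2 in stroke vehicle and 5 in sham vehicle, with sums of 186019 and 254804 in stroke candesartan pools 1 and 2. Oligodendrocyte markers gave 6, 6, 0 and 4 of 8 in the same order of groups. In stroke candesartan their sums went the other way, 280335 in pool 1 and 374392 in pool 2, with pool differences from -0.92 to 0.88. The 6 markers of GABA interneurons could not be assigned to striatum or cortex, as the segment was measured whole. Their median pool differences were -0.13 in stroke candesartan, -0.20 in sham candesartan, 0.26 in stroke vehicle and 0.04 in sham vehicle. These medians had the opposite sign to those of the medium spiny neuron genes in the first 3 of these groups. The sums of the 6 GABA interneuron markers ranged over 44507 to 50405 in stroke candesartan, 35349 to 41398 in sham candesartan, 34308 to 42212 in stroke vehicle and 36724 to 36990.3 in sham vehicle.

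**Figure D4:**
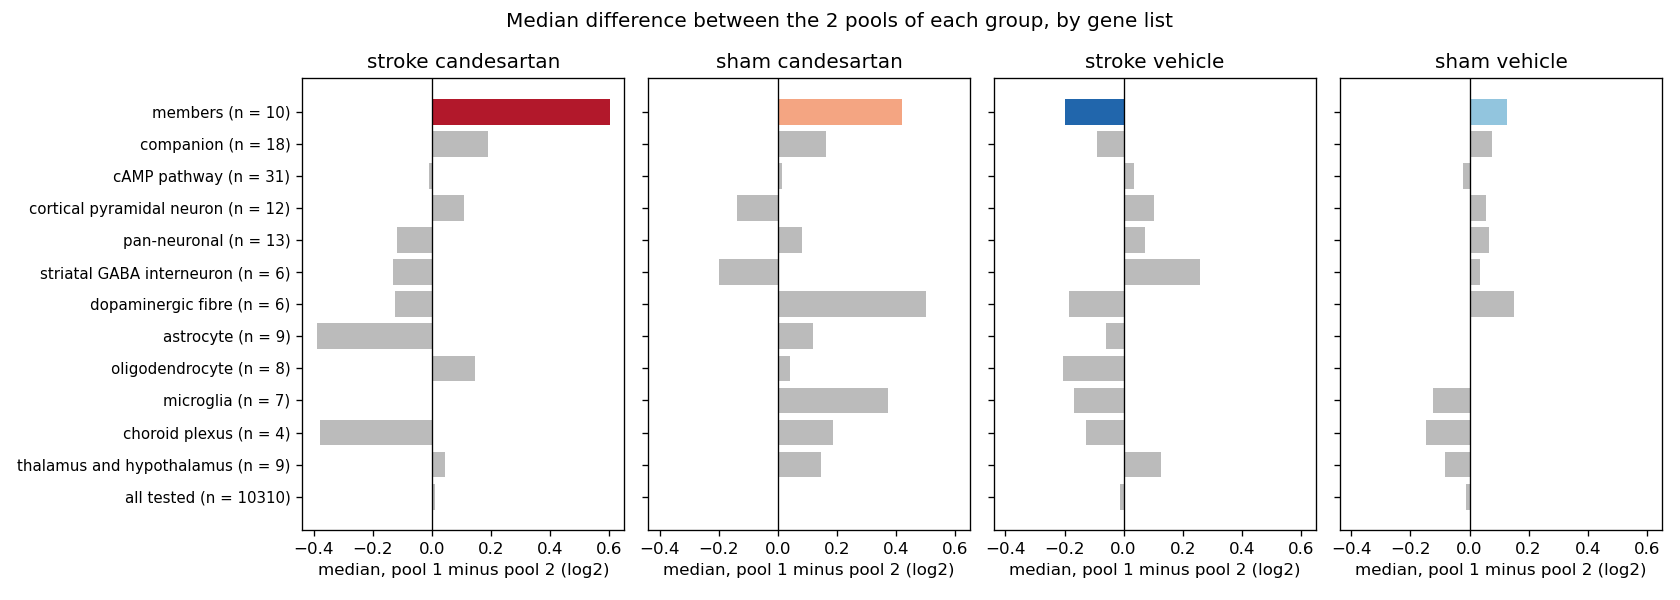
Median pool 1 minus pool 2 (x axis, log2) in each group for the medium spiny neuron genes (coloured bars, labelled members), for the companion and cAMP pathway lists, for marker lists of other cells and for all tested probe sets (grey bars). The coloured bar reaches 0.60 in stroke candesartan, where the astrocyte bar lies at -0.39, and all tested probe sets lie within 0.02 of 0 in each group.

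How far the 8 genes moved with each other over the 8 arrays was described by Pearson's r between probe sets. The arrays share groups and pools, so these correlations carry no p. Of 45 pairs 41 were above 0, in a range of -0.154 to 0.855. Ppp1r1b, Adora2a, Tac1, Rgs9 and Drd2 formed a tight set, with 0.682 to 0.855 in all 10 of their pairs. That set joins Tac1, a gene of direct-pathway neurons, with Drd2 and Adora2a, genes of indirect-pathway neurons. It was picked from these same correlations, and Pde10a 1370669_a_at came close to it, at 0.626 with Rgs9 to 0.799 with Adora2a. Correlations between pairs of other probe sets were not determined for comparison. The correlation between the 2 Drd1 probe sets was 0.82 and that between the 2 Pde10a probe sets 0.56. The correlations of Penk ran from -0.099 with Drd2 to 0.61 with Drd1 1368479_at, and the lowest of the 45 was that of Pde10a 1368438_at with Drd1 1368478_at. Pde10a 1370669_a_at had an r of 0.80 with Adora2a and 0.73 with Ppp1r1b, whereas Pde10a 1368438_at had 0.35 and 0.16 with the same genes.

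Averaged over the genes after standardizing each, the profile was 1.09 in stroke candesartan pool 1, -0.69 in stroke candesartan pool 2, 1.05 in sham candesartan pool 1, -0.52 in sham candesartan pool 2, -0.72 in stroke vehicle pool 1, 0.12 in stroke vehicle pool 2, 0.02 in sham vehicle pool 1 and -0.35 in sham vehicle pool 2. The probe sets of other genes most like this profile, over 8 arrays, were those of Col27a1 (r of 0.93), Stk4 (0.92), Kcnt1, a sodium-activated potassium channel (0.91), Dpagt1 (0.91) and Sacm1l (0.91). Col27a1 read above the filter on only 2 arrays, stroke candesartan pool 1 (939.8) and sham candesartan pool 1 (1090.8), where the profile was highest. It thus entered the ranking only through those arrays, and the other 4 genes read above the filter on all 8. Of 8671 tested probe sets with 1 symbol, 60 or 0.692% had an r above 0.8. The 18 companion genes had a median r of 0.53, against 0.00612 over all, and only Adcy5, the main adenylyl cyclase of the striatum, was above 0.8, at 0.85.

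Other genes of striatal projection neurons were taken from the companion list of 36, of which 18 could be tested. Of these 18 genes 0 passed limma's test in any of the 6 comparisons, while the unadjusted p was under 0.05 for 0 in stroke minus sham with vehicle, 1 in the same with candesartan, 1 in candesartan minus vehicle after stroke, 1 in that after sham, 1 over both pretreatments and 2 in the interaction. The share of all tested probe sets under that unadjusted p was 7.04%, 12.4%, 13.1%, 3.92%, 9.52% and 8.87% in the same 6 comparisons. In stroke minus sham over both pretreatments their median was 0.02, with 10 above 0, against -0.10 for the 10 medium spiny neuron probe sets. Pool 1 was higher for 13 of 18 in stroke candesartan, 14 in sham candesartan, 5 in stroke vehicle and 14 in sham vehicle, with medians of 0.19, 0.16, -0.09 and 0.08, beside medians of 0.60, 0.42, -0.20 and 0.13 for the medium spiny neuron probe sets.

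Adcy5 read 2922 and 2152.5 in stroke candesartan, 3493 and 2424.5 in sham candesartan, 2544 and 2560 in stroke vehicle, and 2728 and 2681 in sham vehicle, with the high pool 1 and low pool 2 of both candesartan groups seen for Rgs9. Arpp21, another protein kinase A substrate of these neurons, read 12531 and 7717 in stroke candesartan, 6506 and 5027.5 in sham candesartan, 5694 and 6449 in stroke vehicle, and 5738 and 5880 in sham vehicle. Both stroke candesartan pools of Arpp21 were the highest, and the difference from sham candesartan was 0.75 ± 0.20 (limma adjusted p = 0.22). Ptpn5, the striatal-enriched phosphatase STEP, read 11007 and 10431 in stroke candesartan, 10619.9 and 9929.5 in sham candesartan, 9366 and 11026 in stroke vehicle, and 9955 and 8010.4 in sham vehicle. Pdyn, the dynorphin precursor of direct-pathway neurons, lay between 926 and 1261 on all 8 arrays, close to the filter of 916. Rasd2, a small G protein of the striatum, lay between 9546 and 12653, Gng7, a G protein subunit of the striatum, between 4856 and 6927, and Pde1b, a calmodulin-dependent phosphodiesterase, between 1367 and 3088. The sodium channel subunit gene Scn4b and the transcription factor gene Meis2 had stroke minus sham differences of -0.18 and -0.28 over both pretreatments (adjusted p = 0.591 and 0.584 by limma, unadjusted p = 0.0891 and 0.0788). Chrm4, the muscarinic M4 receptor gene, passed the filter on 1 array and was not tested.

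The signalling enzymes around the dopamine receptors were taken as a list of 34 genes, of which 31 were tested. In all 6 comparisons 0 of 31 passed limma's test, with an unadjusted p under 0.05 for 1 in stroke minus sham with vehicle, 6 in the same with candesartan, 6 in candesartan minus vehicle after stroke, 1 in that after sham, 1 over both pretreatments and 5 in the interaction. The shares of all tested probe sets under that unadjusted p are those given for the companion genes, 12.4% and 13.1% in the comparisons with 6 of 31. Ppp1cb, a catalytic subunit of protein phosphatase 1, the target of DARPP-32, read 7573 and 5287 in stroke candesartan, 9786.5 and 11195 in sham candesartan, 8543 and 10501 in stroke vehicle, and 10243 and 9389 in sham vehicle. Both stroke candesartan pools were the lowest for Ppp1cb, and the difference from sham candesartan was -0.69 ± 0.17 (limma adjusted p = 0.192). Prkacb, a catalytic subunit of protein kinase A, and Ppp3cb, a catalytic subunit of calcineurin, which removes the phosphate from DARPP-32, lay above sham candesartan in stroke candesartan by 0.31 and 0.36 (adjusted p = 0.35 and 0.292 by limma). With vehicle their stroke minus sham differences were 0.03 and -0.08. In stroke candesartan pools 1 and 2 Prkacb read 23195 and 27073 and Ppp3cb 29505 and 34701. Both were thus highest in pool 2, the array that stood apart. For Gnai2, an inhibitory G protein gene, stroke minus sham was -0.42 with vehicle (limma adjusted p = 0.705) and -0.14 with candesartan (adjusted p = 0.805 by limma).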

How the data were processed

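Total RNA from a segment of the right hemisphere was hybridised to Affymetrix RAE 230A arrays, 8 in all, with 2 pools of 2 rats in each of 4 groups, assigned from the labels. The authors deposited a linear signal intensity for each probe set. Per the submitters' processing notes they came from GCOS, the software of the scanner's maker. No version is given in the sources used here. The deposited scaling was kept. Control probe sets (57) were left out. Before log2, 369.9 was added to each signal as an offset (percentile 20 of the table). This scale, log2(signal + offset), makes differences of dim genes look smaller than they are. A probe set was tested if 2 or more of the 8 arrays read over 916.3 (percentile 40), as did 10310 of 15866. Symbols came from the platform annotation: 12783 probe sets had 1, 312 several and 2771 none.

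The limma package (3.58.1, under R 4.3.3) fitted a mean for each of the 4 groups to all arrays at once, leaving 4 residual degrees of freedom, with trended eBayes variances. Each of 6 comparisons was adjusted by Benjamini-Hochberg over all tested probe sets, with a threshold of 0.05. The arrays' number limits the precision. The pipeline was tested on simulated data. The 8 genes, the companion and cAMP pathway lists and the marker lists (pyramidal neuron, dopaminergic fibre, cholinergic and GABA interneuron, pan-neuronal, astrocyte, oligodendrocyte, microglia, choroid plexus, thalamus and hypothalamus) were chosen with earlier results of these data known. In lists each gene stood by its brightest probe set on average. Named were all probe sets of the 8 genes, 10 companion genes fixed by name, the 4 genes with the smallest p over both pretreatments in the companion and the cAMP pathway lists, and the 5 probe sets most like the mean profile. Alternatives covered scaling, offset, filter, variance model, groups fitted, a replicate block and each array left out. The pool comparisons under other settings were added after seeing the data. Promoter sequences are from RefSeq (GRCr8).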

Additional observations from a re-analysis of the deposited data

How the results depend on the processing

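No probe set of the 8 genes passed in any of the 6 comparisons under the 9 alternatives that left out no array, the replicate block by pool number included (0 called in each comparison). With the replicate block 22, 22, 4, 0, 45 and 0 of all tested probe sets passed in stroke minus sham with vehicle, with candesartan, candesartan minus vehicle after stroke, after sham, stroke over both pretreatments and the interaction, against 27, 25, 7, 0, 43 and 2. Over all tested probe sets, pool differences of 2 groups correlated at -0.0951 to 0.137. These correlations cover the whole table, and an effect shared by pool number in only some genes was not tested. Of 994 differences of the 10 probe sets under an alternative, 2 passed, both Pde10a 1370669_a_at without stroke candesartan pool 1, and 74 had the other sign, 56 of them where the value with all arrays and the reported settings lay within 0.15 of 0. With median-centred arrays the stroke difference was -0.012 for Rgs9 with vehicle and 0.032 for Adora2a and 0.032 for Tac1 with candesartan, and after quantile normalization 0.0022 for Adora2a with candesartan. Median centring also put 1 of 10 probe sets higher in pool 1 in stroke vehicle.

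Leaving out each array gave, for stroke minus sham with vehicle, a median of -0.16 to 0.071 and values of 0.26 to 0.55 (Drd1 1368478_at), 0.15 to 0.50 (Drd1 1368479_at), -0.55 to 0.059 (Adora2a), -0.13 to 0.093 (Drd2) and -0.38 to 0.013 (Tac1). With candesartan 0 to 1 were called, the median ran from -0.35 to 0.25, and the values were -0.12 to 0.50 (Drd1 1368478_at), -0.36 to 0.30 (Adora2a), -0.45 to 0.31 (Rgs9), -0.37 to 0.037 (Drd2), -0.34 to 0.28 (Tac1), -0.37 to 0.24 (Ppp1r1b), -0.017 to 0.52 (Penk) and -0.80 to -0.13 (Pde10a 1370669_a_at). For candesartan minus vehicle after stroke the median ran from -0.17 to 0.36 and Pde10a 1370669_a_at from -0.16 to 0.52, and after sham the median ran from -0.063 to 0.34, Penk from -0.10 to 0.44 and Pde10a 1370669_a_at from -0.075 to 0.32. Over both pretreatments 0 to 1 were called, the median running from -0.20 to 0.038 and Pde10a 1370669_a_at giving -0.66 to -0.32, and the median of the interaction ran from -0.19 to 0.24.

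Counts over all tested probe sets moved more. Stroke minus sham with vehicle gave 12 without the signal filter, 93 with only the 2 groups fitted and 7 to 39 without 1 array. With candesartan it gave 11 with only the 2 groups fitted and 5 to 834 without 1 array, and over both pretreatments 23 to 388. Candesartan minus vehicle after stroke gave 0 without the filter and 0 to 984 without 1 array, and the interaction 0 without the filter and 0 to 298.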

Other observations

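Among the other marker lists 0 members passed limma's test for stroke minus sham with vehicle, with candesartan or over both pretreatments. Several lists had medians of opposite sign in vehicle and candesartan rats, and their medians over both pretreatments lay near 0 or between them. Pan-neuronal markers had a median of 0.10 with candesartan (10 of 13 above 0) and -0.11 with vehicle (11 of 13 below 0), and 0.000902 over both. Oligodendrocyte markers gave -0.13 with candesartan, 0.11 with vehicle and 0.02 over both, and choroid plexus markers -0.15, 0.14 and 0.01. Pyramidal neuron markers had a median of 0.26 with candesartan, 0.0045 with vehicle and 0.17 over both, and GABA interneuron markers of 0.21, 0.06 and 0.12.

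Markers of dopaminergic neurons had a median stroke minus sham difference of -0.16 with candesartan, in a range of -0.52 to 0.66. Without overlap 1 of 6 was lower and 1 of 6 higher, against 38.2% of all tested probe sets without overlap. These values are RNA of the segment, and innervation of the striatum was not measured. With vehicle the median of these markers was -0.45, with 5 of 6 lower without overlap, against 45.2% of all tested probe sets. Sham vehicle was also high against sham candesartan in this list: candesartan minus vehicle after sham had a median of -0.38, with 6 of 6 below 0 and 5 of 6 lower without overlap, against 33.8% of all tested probe sets. Over both pretreatments the stroke minus sham median was -0.28, with 5 of 6 below 0, and 4 of 6 had an unadjusted p under 0.05, against 9.52% of all tested probe sets.

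Thalamic and hypothalamic markers had a median of -0.43 with candesartan, -0.10 with vehicle and -0.19 over both, astrocyte markers of -0.14, -0.16 and -0.15, and microglia markers of -0.22, -0.04 and -0.15. The 1 tested marker of cholinergic interneurons gave -0.22 with candesartan, -0.04 with vehicle and -0.13 over both, and Chat and Slc18a3 lay below the filter. Over both pretreatments the unadjusted p was under 0.05 for 3 of 12 pyramidal neuron, 2 of 9 astrocyte, 1 of 6 GABA interneuron, 1 of 13 pan-neuronal, 1 of 8 oligodendrocyte, 1 of 7 microglia, 0 of 4 choroid plexus and 1 of 9 thalamic and hypothalamic markers. The share of all tested probe sets under it was 9.52%. The signalling enzymes of the cAMP pathway had a median of 0.06 over both pretreatments, with 21 of 31 above 0.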
